A study of Mus musculus with 3 samples.

Results

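The genes described here mostly encode the machinery of vesicle transport, chosen by their official symbols: Rab or Sec directly followed by a digit, or a symbol beginning with Vamp, Stx, Snx, Vps or Tmed. Of 8037 genes with a CELF1 CLIP cluster in any library, 129 fit this rule, out of 204 protein-coding genes in RefSeq whose symbols fit it. A CLIP cluster is a short stretch of RNA on which more reads crosslinked to the protein were found than the authors' model of the gene's expression and unspliced length allowed. CELF1 (CUGBP1), which controls splicing and the decay of mRNAs, was pulled down with the antibody clone 3B1 after UV crosslinking at 254 nm. The 3 libraries came from heart (ventricle) and from muscle of 16-week-old mice of C57/BL6 background, and from C2C12 myoblasts, an established mouse line of muscle precursor cells grown in culture. No induction of CELF1 or other treatment is given for these samples, and the muscle is not named further in the labels. With 1 library per source there is no replicate, so no difference between the libraries has a test, and a tissue difference cannot be told apart from a difference between 2 preparations. All intervals are exact 95% intervals and cover counting error only, and clusters of 1 gene are not independent of each other.

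Rab proteins are small GTPases that mark the membranes of each compartment and recruit the proteins that move, tether and fuse vesicles. Coat proteins such as COPII, whose outer and inner layers include Sec proteins, bud vesicles from the endoplasmic reticulum, and Tmed proteins help to load their cargo. SNAREs, among them the syntaxins (Stx) and the VAMPs, then fuse the vesicle with its target, while sorting nexins (Snx) and Vps proteins sort cargo at endosomes. In muscle cells these steps carry the glucose transporter, ion channels and receptors to and from the cell surface. CELF1 is known for binding UGU-containing, GU-rich RNA in introns and in 3' UTRs.

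Stretches of RNA that were covered by a cluster in all 3 libraries are shown first, because they are the sites shared by both tissues and the cell line. There were 28 such stretches, of 2 to 97 nt, in 16 of the 129 genes, and 26 of the 28 lay in 3' UTRs. UGU was present in 22 of the stretches, and the 6 without it were of 2 to 19 nt. The following are the middle 30 nt of the widest shared stretch in the 3' UTRs of 6 genes, written 5' to 3' from mm9 with UGU in capitals. They are Snx3 (chr10:42254690-42254719, plus strand, from a stretch of 97 nt), Rab2a (chr4:8533867-8533896, plus strand, 75 nt), Rab10 (chr12:3248828-3248857, minus strand, 44 nt), Rab11a (chr9:64564607-64564636, minus strand, 43 nt), Rab12 (chr17:66843918-66843947, minus strand, 41 nt) and Rab5c (chr11:100576616-100576645, minus strand, 40 nt).
Snx3: ugcucccuuucguuccgcuUGUcuuggcag
Rab2a: ucaauugaUGUgauuauuuuUGUuaaaUGU
Rab10: caaaccugccccgcUGUuggccuucUGUcc
Rab11a: ggcUGUGUauaguccauuucccaggucuga
Rab12: aauaacuuggcgUGUccugagUGUUGUgcu
Rab5c: uaUGUuuucuucaccaUGUaaccaaucagu

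UGU occurred 1 to 3 times in each of these 30 nt windows. Only 2 shared stretches were intronic, in Vps72 (chr3:94915342-94915370, plus strand) and in Snx12 (chrX:98404489-98404501, minus strand), and both are shown whole. The Snx12 stretch lies on the 3' side of a bound 3' UTR of that gene, inside a longer annotated transcript. Vps72 carries a Vps symbol but encodes a subunit of chromatin-remodelling complexes.
Vps72: cUGUGUcuuUGUcggcuuugcaauuuucu
Snx12: acguggucUGUcu

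A further pair of sequences shows the GU repeats in introns of the 2 genes with the largest differences between muscle and heart described below. They are the only intronic muscle cluster of Vps37a (chr8:41611409-41611469, plus strand, 842 nt from the nearest exon) and the widest of Stxbp4 (chr11:90477408-90477473, minus strand, 3056 nt from the nearest exon).
Vps37a: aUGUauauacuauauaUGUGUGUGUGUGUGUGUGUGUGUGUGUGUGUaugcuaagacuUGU
Stxbp4: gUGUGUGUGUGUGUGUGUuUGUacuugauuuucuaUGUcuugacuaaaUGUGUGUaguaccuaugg

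UGU occurred 17 times, overlaps included, in the 61 nt of Vps37a and 13 times in the 66 nt of Stxbp4. The Vps37a site overlapped a heart cluster, and the Stxbp4 site did not. In Vps37a the introns held 1 cluster in heart and 1 in muscle, so the difference in number lay in its 3' UTR, with 1 and 7.

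CELF1 clusters lay in most of these genes in heart, in most in muscle and in a minority in myoblasts. In heart, 115 of the 129 genes (89.1%, 82.5 to 93.9) had a cluster, beside 85.3% of all genes with a cluster in any library. In muscle the number was 95 (73.6%, 65.2 to 81.0), beside 66.5%, and in myoblasts it was 45 (34.9%, 26.7 to 43.8), beside 34.3%. All 3 background shares lay within the members' intervals. Clusters in the members numbered 544 of 42263 in heart (1.29%, 1.18 to 1.40), 356 of 24844 in muscle (1.43%, 1.29 to 1.59) and 74 of 5115 in myoblasts (1.45%, 1.14 to 1.81), and the 3 intervals overlapped. The lists differ in size, which sets how many genes can be seen: thinned to 5115 clusters each, heart would be expected to hold 47.6 bound members and muscle 47.5, close to the 45 of myoblasts. The number of reads behind a cluster is unknown. A gene without a cluster may be bound below what the authors' model could call, or be expressed at a low level, and these cannot be told apart here.

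The members' clusters lay in 3' UTRs more often than the clusters of other genes did. In heart, 255 of 544 member clusters (46.9%, 42.6 to 51.2) had their midpoint in a 3' UTR, against 32.8% of all other clusters. In muscle the share was 236 of 356 (66.3%, 61.1 to 71.2) against 49.8%, and in myoblasts it was 34 of 74 (45.9%, 34.3 to 57.9) against 33.7%. The share of other clusters was below the members' interval in all 3 libraries. Introns showed the reverse, with 48.7% (44.4 to 53.0) of member clusters against 58.8% in heart, 32.3% (27.5 to 37.4) against 43.4% in muscle, and 48.6% (36.9 to 60.6) against 60.6% in myoblasts, where the interval reached the share of other genes. Without the leading gene, Rab10, the myoblast 3' UTR share was 42.6% (30.7 to 55.2), and its interval then held the 33.7% of other clusters. With clusters of at least 40 nt it was 61.5% (40.6 to 79.8), and the interval held the 47.4% of other clusters. Few member clusters lay elsewhere, with 18, 5 and 3 in coding exons and 4, 0 and 0 in 5' UTRs, in the same order of libraries. The 0 of 356 in muscle allows a share of up to 0.843% and the 0 of 74 in myoblasts up to 4.05%, taking 3 counts as the most that a count of 0 leaves room for. The exact two-sided intervals reach 1.03% and 4.86%.

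**Figure D1:**
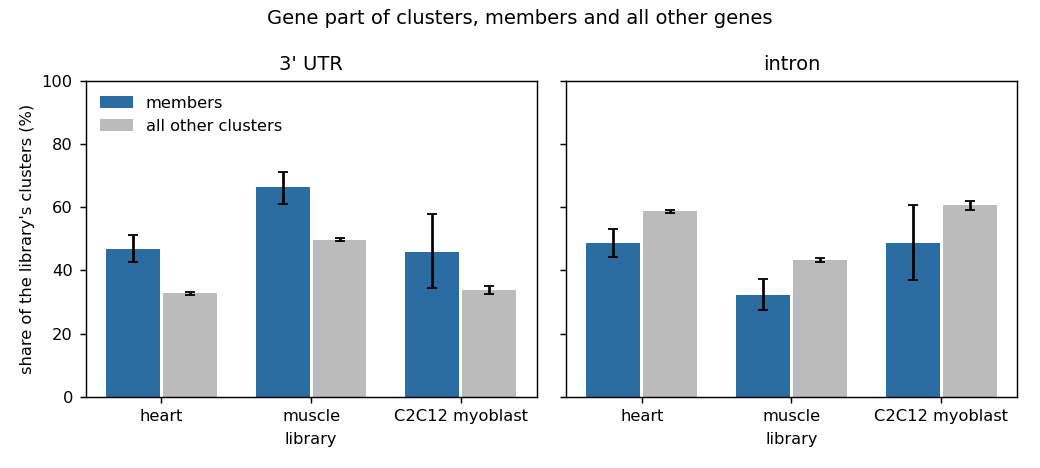
Share of each library's clusters (%, vertical axis) whose midpoint lay in a 3' UTR (left) or an intron (right), for the 129 member genes (blue) and all other genes (grey), with exact 95% counting intervals as error bars. The blue bar is above the grey one in 3' UTRs in each library, for example 66.3% against 49.8% in muscle, and below it in introns.

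Gene architecture differed in the same direction. The annotated 3' UTRs of the members made up 4.02% of their combined 3' UTR and intron length, against 2.75% for all other genes with a cluster. Per kb of 3' UTR, the members held 0.959 clusters in heart (0.845 to 1.08), beside 0.906 in other genes. The values were 0.887 (0.778 to 1.01) beside 0.808 in muscle and 0.128 (0.0885 to 0.179) beside 0.113 in myoblasts. Per 100 kb of intron they were 4.17 (3.69 to 4.71) beside 4.60 in heart, 1.81 (1.5 to 2.17) beside 1.99 in muscle and 0.567 (0.397 to 0.785) beside 0.573 in myoblasts. On this per-length scale the value of other genes lay within the members' interval in every library and both gene parts. Across the 129 genes, the number of intronic clusters followed intron length in heart with a Spearman's rho of 0.566, and 3' UTR clusters followed 3' UTR length with a rho of 0.293. These are correlations across genes of 1 library, given as a description.

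Rab GTPases were the largest group in every library, with 137 clusters in 26 genes in heart, 102 in 22 genes in muscle and 26 in 14 genes in myoblasts. Of these clusters, 56.2%, 78.4% and 73.1% lay in 3' UTRs. Rab GTPases also had the most genes under the rule, 59 protein-coding ones, of which 29 had a cluster in any library. Rab10, which acts in the delivery of the glucose transporter to the surface (Entrez 19325, chr12:3247430-3309969, minus strand), had the most 3' UTR clusters of all members in each library. It held 12 in heart, 13 in muscle and 5 in myoblasts, within a 3' UTR of 2357 nt, beside 3, 4 and 1 in its introns. Of the 5 myoblast clusters in this 3' UTR, 4 overlapped clusters of both tissues, and the fifth, nearest to the end, overlapped neither. Rab18, which is found on lipid droplets and the endoplasmic reticulum, was bound at its 3' UTR alone, with 8 heart, 10 muscle and 3 myoblast clusters. Rab14, of the Golgi and early endosomes, had 8, 7 and 2 in its 3' UTR.

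Several Rab genes of the early secretory pathway and of recycling were bound at their 3' UTRs as well. Rab1a, which acts between the endoplasmic reticulum and the Golgi, had 6 heart clusters, 8 in muscle and 2 in myoblasts, all in the 3' UTR, while its paralog Rab1b had 2, 2 and 1. Rab2a, of the same pathway, had 7, 6 and 1 in its 3' UTR and 5, 1 and 0 in introns, against 3, 1 and 0 in total for Rab2b. Rab11a, a Rab of recycling endosomes, had 7, 6 and 1, all in the 3' UTR, and Rab11b had 4, 1 and 1 in total, 2, 1 and 0 of them in the 3' UTR. Among the early endosomal Rab5 genes, Rab5a had 3, 2 and 0 clusters, Rab5b 0, 0 and 1, and Rab5c 1, 2 and 1. The paralogs thus differed in number. In each of the Rab1, Rab2 and Rab11 pairs the form with the letter a held more in both tissues, but this did not hold for every pair. Rab6a had 3 clusters in heart and 5 in muscle, and Rab6b had 4 in heart and 4 in muscle.

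A smaller set of Rab genes was bound in introns. Rab43, of the Golgi, had 10 heart clusters, 4 in muscle and 1 in myoblasts, all intronic although its annotated 3' UTR is 4498 nt. Rab30, also of the Golgi, had 6, 2 and 0, again all intronic. Rab12, of recycling and lysosomal traffic, had both kinds, with 7, 5 and 0 in introns and 2, 3 and 1 in its 3' UTR. Rab31, a relative of Rab22a that acts at endosomes and the trans-Golgi (Entrez 106572, chr17:66001066-66122092, minus strand), had 4 heart clusters, 0 in muscle and 4 in myoblasts. The 4 myoblast clusters were intronic and none overlapped a heart cluster. Of the proteins that act on Rabs, the Rab11 effector Rab11fip5 had 9, 4 and 1 clusters in its 3' UTR, and Rab3ip, an exchange factor for Rab8, had 10, 1 and 0 in total, 7 of the 10 in introns.

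**Figure D2:**
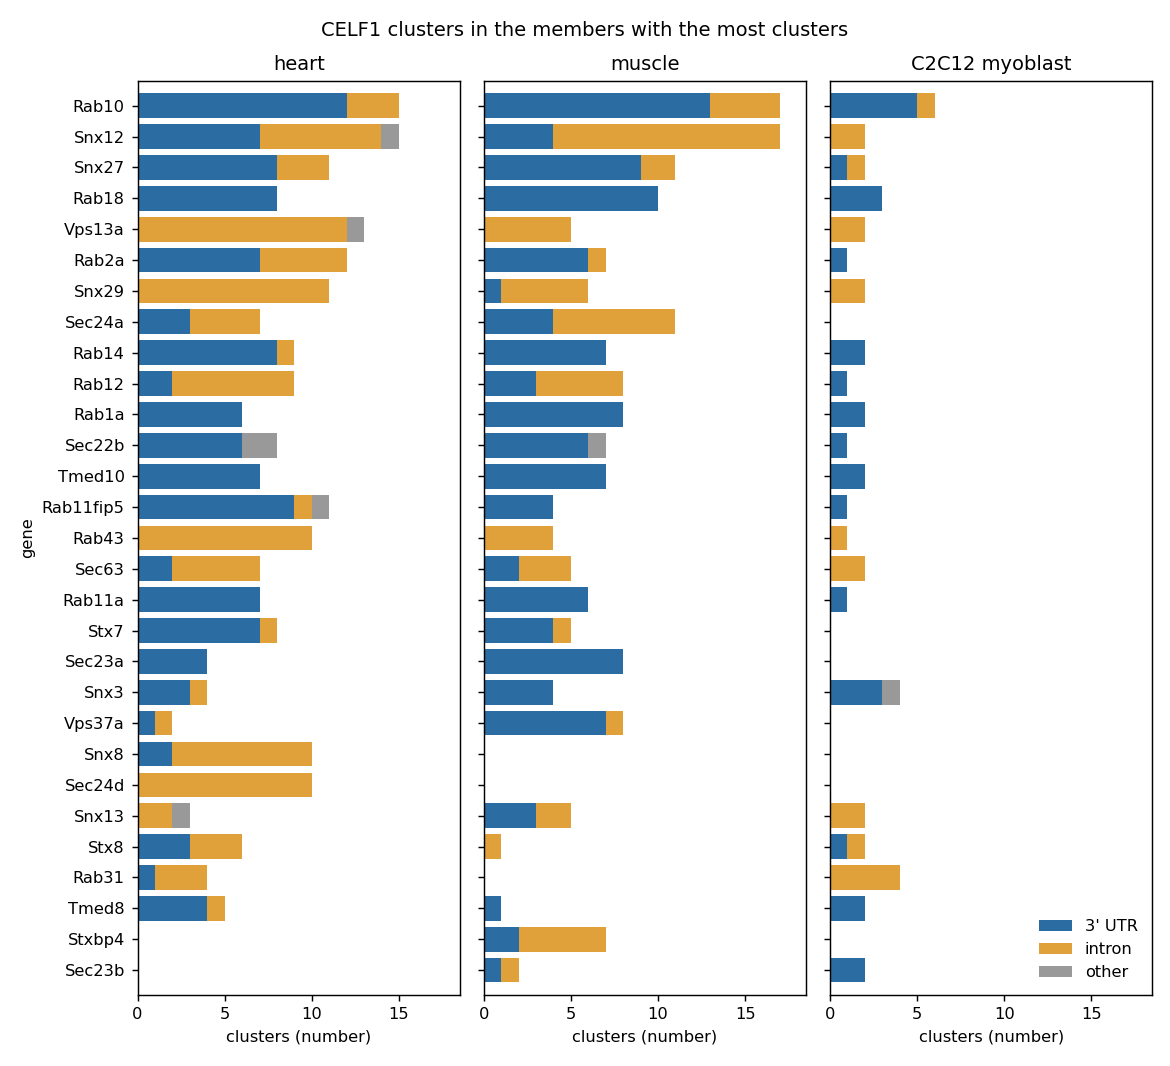
Number of clusters (horizontal axis) in the members with the most 3' UTR or intronic clusters in any library, in heart, muscle and C2C12 myoblasts from left to right, split into 3' UTR (blue), intron (orange) and other parts (grey). Rab10 and Snx12 reach 15 clusters in heart and 17 in muscle, Rab18, Rab1a, Rab11a and Tmed10 are blue only, and Sec24d and Rab43 are orange only.

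SNAREs held 70 clusters in 19 genes in heart, 41 in 14 genes in muscle and 9 in 7 genes in myoblasts. In the tissues 71.4% and 80.5% of these lay in 3' UTRs, and in myoblasts 2 of 9 did. Most VAMPs, which sit on the vesicle, were bound at 3' UTRs in the tissues. Vamp1 had 3 and 4 clusters in heart and muscle, Vamp2 had 4 and 2, Vamp3 had 5 and 5, and Vamp4 had 6 and 3, all in the 3' UTR. Vamp5 and Vamp8 had 2 each in heart, 1 of the 4 in a 3' UTR, and 0 in muscle. The single myoblast cluster in a VAMP gene lay in a coding exon of Vamp3. Of the syntaxins, Stx7, a SNARE of late endosomes, had the most 3' UTR clusters in heart, 7, and had 4 in muscle, as did Stx12, and 0 in myoblasts. Sec22b, a SNARE between the endoplasmic reticulum and the Golgi, had 6, 6 and 1 in its 3' UTR and a further 2, 1 and 0 in coding exons.

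Among genes for proteins that bind syntaxins, 1 of the 3 described here, Stxbp4, had clusters in muscle and 0 in the other libraries. Stxbp4 (Synip), which binds the syntaxin that takes up glucose transporter vesicles (Entrez 20913, chr11:90337806-90499398, minus strand), had 7 muscle clusters, 5 of them in introns. Stxbp3 (Munc18c) had 6 and 6 in the tissues, but in heart 5 of 6 were intronic and in muscle 5 of 6 lay in the 3' UTR. Stxbp5 (tomosyn), an inhibitor of SNARE assembly, had 10, 3 and 2.

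The COPII genes held 45 heart clusters, 26 in muscle and 4 in myoblasts, and here introns held most of the heart clusters, 34 of 45. The cargo-binding Sec24 paralogs differed from each other. Sec24a had 7, 11 and 0 clusters, Sec24b 7, 2 and 2, Sec24c 6, 0 and 0, and Sec24d 10, 0 and 0, all 10 of the last in introns (Entrez 69608, chr3:122970414-123068553, plus strand). Of the inner-coat Sec23 pair, Sec23a had 4, 8 and 0, all in the 3' UTR, and Sec23b had 0, 2 and 2. Tmed cargo receptors were bound at 3' UTRs nearly throughout, with 18 of 19 clusters in heart, 14 of 14 in muscle and 4 of 4 in myoblasts. Tmed10 had 7, 7 and 2, and the 2 myoblast clusters overlapped heart clusters. Tmed2, whose exon 3 the study followed, had 1 cluster in all, in muscle, and none in its introns or coding exons in any library. That cluster lay in the last part of the 3' UTR (chr5:125000368-125000424, plus strand), with its midpoint 110 nt from the nearest annotated transcript end.

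**Figure D3:**
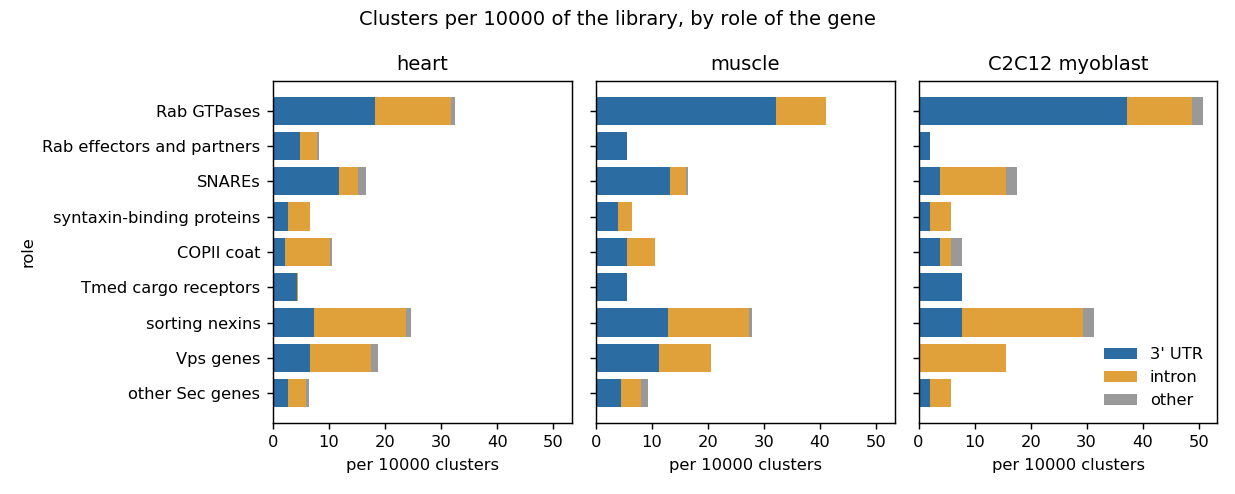
Clusters per 10000 of each library (horizontal axis) in the member genes of each role, in heart, muscle and C2C12 myoblasts from left to right, split into 3' UTR (blue), intron (orange) and other parts (grey). Rab GTPases have the longest bar in each library, 32.4, 41.1 and 50.8 per 10000, and Tmed cargo receptors are almost wholly blue. The bars are not divided by the number of genes in a role, which is highest for Rab GTPases.

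Sorting nexins held 104 heart clusters, 69 in muscle and 16 in myoblasts, 29.8%, 46.4% and 25.0% of them in 3' UTRs. Snx12, of early endosomes (Entrez 55988, chrX:98293125-98417902, minus strand), had 15, 17 and 2. Of these the 3' UTR held 7, 4 and 0, and the introns 7, 13 and 2. All of these intronic clusters lay on the 3' side of the bound 3' UTR, 1992 to 39874 nt from the nearest exon. They counted as intronic because an annotated transcript runs on past that 3' UTR. Snx27, which returns receptors from endosomes to the surface, had 8, 9 and 1 in its 3' UTR and 3, 2 and 1 in introns. Snx3, a partner of retromer, had a different spread, with 4 clusters in every library, 3, 4 and 3 of them in its 3' UTR of 623 nt. Snx29 had 11, 6 and 2, all intronic but 1, in the longest introns of the members, 344804 nt in all. Snx8 had 10 in heart, 8 of them intronic, and 0 in muscle and in myoblasts, while Snx10 had 4 in muscle, all in the 3' UTR, and 0 elsewhere.

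The Vps genes held 79 heart clusters, 51 in muscle and 8 in myoblasts. The 8 myoblast clusters were all intronic, while 35.4% of heart and 54.9% of muscle clusters lay in 3' UTRs. Vps13a, a lipid transfer protein of membrane contact sites, had the most in heart, with 13, 5 and 2, of which 12, 5 and 2 were intronic. Its paralog Vps13c had 8, 5 and 1, with 3 of the heart clusters in coding exons. Of the retromer core, Vps35 had 5 and 4 clusters in its 3' UTR in heart and muscle, Vps29 had 2 and 3, Vps26b had 5 and 2, and Vps26a had 2 and 0. None of these 4 genes had a myoblast cluster. Vps37a, a subunit of the ESCRT-I sorting complex (Entrez 52348, chr8:41597137-41636488, plus strand), had 2, 8 and 0, and 7 of the 8 in muscle lay in its 3' UTR. Vps8, of the CORVET tether, had 7, 0 and 1, all intronic.

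Some members act in the endoplasmic reticulum or elsewhere in spite of their symbols. The translocon genes Sec62, Sec63, Sec61a1 and Sec61a2 had 4, 7, 1 and 3 clusters in heart, 5, 5, 0 and 4 in muscle, and 0, 2, 0 and 0 in myoblasts. Sec11a, of the signal peptidase, had 4, 3 and 0, and Sec14l1, of a family of lipid-binding proteins, had 8, 6 and 1. Coding exon and 5' UTR clusters were few, and Sec22b, Sec61a2 and Vps13c had the most, 3 each over the 3 libraries.

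Heart and muscle were compared gene by gene by the share of each library's clusters that a gene held, among the 76 members with at least 5 clusters in both together. A gene was called when the share was at least 2-fold higher, with counts under 3 in the lower library set to 3 and at least 3 clusters in the higher one. In muscle, 13 of 76 members (17.1%) were called higher, beside 17.3% of all genes, a share near the background. In heart, 0 of 76 were called higher, beside 7.72% of all genes. The sizes of the lists and the floor of 3 limit this second count, because a gene with no muscle cluster needs 11 heart clusters to be called. Sec24d and Snx8, with 10 clusters against 0 each, were 1.96-fold higher in heart with the 0 set to 3, and were not called. The exact intervals of their ratios, without that floor, ran from 1.32 upward. The median difference in share, heart minus muscle, was -0.107 clusters per 10000 over the 76 members and -0.0952 over all 3771 genes tested. Heart minus myoblasts it was -0.0621 over 53 members and 1.18 over all 3009 genes tested, and muscle minus myoblasts 0.46 over 33 members and 1.67 over all 2072. A single myoblast cluster makes 1.96 per 10000, which was also the members' median in myoblasts in each of these comparisons. The differences from myoblasts therefore turn on 0 or 1 cluster per gene, and no contrast between members and all genes is drawn from them.

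The 13 members called higher in muscle had 4 to 11 muscle clusters each. Stxbp4, with 7 against 0, was 3.97-fold higher with the 0 set to 3. The exact interval of its ratio, without that floor, began at 2.45. Vps37a, with 8 against 2, was 4.54-fold higher with the 2 set to 3. Without that floor its ratio was 6.80, with an interval of 1.36 to 65.8. These were the only 2 of the 13 whose interval lay above 1. The same count over all genes is not given, so this one cannot be set beside a background. Sec23a, with 8 against 4, was 3.40-fold higher (0.911 to 15.4), and Sec24a, with 11 against 7, was 2.67-fold higher (0.946 to 8.13). Rab1a, Rab6a, Rab18, Snx13, Vps41, Vamp1, Sec61a2, Sec62 and Rab11fip2 made up the rest.

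**Figure D4:**
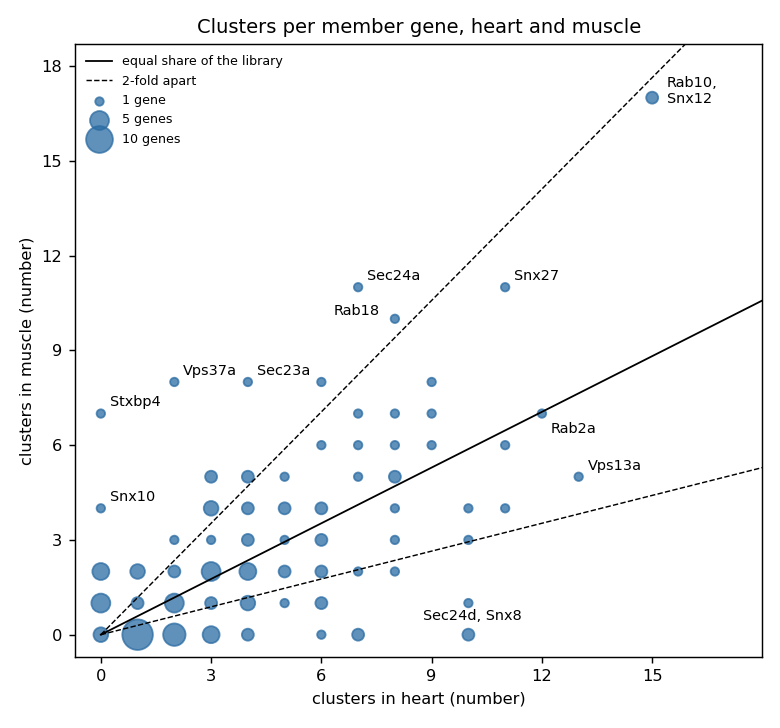
Number of clusters per member gene in heart (horizontal axis) and in muscle (vertical axis), with the area of a point giving the number of genes at that position. The solid line marks an equal share of the 2 libraries and the dashed lines a 2-fold difference, and Stxbp4 sits at 0 and 7 and both Sec24d and Snx8 at 10 and 0.

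Myoblasts were compared with each tissue in the same way. Against heart, 4 of 53 members (7.55%) were called higher in myoblasts, beside 11.2% of all genes. They were Rab31 and Snx3, each with 4 clusters in both libraries and an 8.26-fold higher share (1.54 to 44.4), Rab10, with 6 against 15 and 3.31-fold (1.05 to 9.01), and Rab18, with 3 against 8 and 3.10-fold (0.529 to 12.9). Against muscle, 1 of 33 members (3.03%) was called, beside 14.0% of all genes. This was Snx3, with 4 against 4 and 4.86-fold (0.905 to 26.1). In the 3' UTR of Snx3 the tissue clusters lay nearly end to end, from 42254633 to 42255000 in heart and from 42254657 to 42255100 in muscle. Their number depends on how this block was cut, and the folds and intervals of Snx3 do not allow for that. In the other direction 0 of 53 members were called higher in heart, beside 1.43% of all genes, and 0 of 33 in muscle, beside 1.45%. Without a myoblast cluster, 50 heart or 30 muscle clusters would be needed for a call, and the most in any member were 15 and 17, so no member could be called higher in a tissue than in myoblasts. The planned form of the rule, which set counts under 3 to 3 in both libraries, called 51 of 53 members higher in myoblasts than in heart, beside 75.7% of all genes, and 24 of 33 higher than in muscle, beside 58.5%. It was replaced after these counts were seen, since 19 of the 51 and 7 of the 24 had no myoblast cluster. Between heart and muscle both forms gave 13 calls.

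A set of 35 members (27.1%) had a cluster in all 3 libraries, beside 22.7% of all genes, and the interval of 19.7 to 35.7 held the background. A further 49 (38.0%) were bound in heart and muscle, beside 34.2% of all genes, and 25 (19.4%) in heart alone, beside 23.4%. Muscle alone had 10 (7.75%), beside 8.05%, and heart with myoblasts 6 (4.65%), beside 4.98%. Sec23b was bound in muscle and myoblasts, 0.775% of members beside 1.51% of all genes. Rab5b, Vps11 and Vps45 (2.33%, beside 5.13%) were bound in myoblasts alone, with 1 cluster each, in the 3' UTR of Rab5b and in introns of the other two. Vps11 is a core subunit of the endosomal tethers and Vps45 a partner of syntaxins. In 3' UTRs, 17 of the 94 members with a 3' UTR cluster (18.1%) had one in all 3 libraries, beside 15.2% of all such genes. In introns, 16 of 94 (17.0%) did, beside 16.6%. Among the 17 were 10 Rab GTPases, from Rab1a and Rab2a to Rab21, with Rab11fip5, Sec14l1, Sec22b, Snx3, Snx27, Tmed8 and Tmed10.

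The positions of clusters were shared between libraries more in 3' UTRs than in introns. Of member clusters in heart 3' UTRs, 52.9% (46.6 to 59.2) overlapped a muscle cluster by at least 1 bp on the same strand, and of those in introns 16.2% (12 to 21.2) did. From muscle to heart the shares were 58.1% (51.5 to 64.4) and 35.7% (26.9 to 45.1). Of the 34 myoblast clusters in 3' UTRs, 26 (76.5%, 58.8 to 89.3) met a heart cluster and 23 (67.6%, 49.5 to 82.6) a muscle cluster. With at least 50% of both clusters shared, these fell to 11 (32.4%, 17.4 to 50.5) and 10 (29.4%, 15.1 to 47.5), beside 29.5% and 28.4% for other genes. For other genes the heart share meeting muscle was 53.9% in 3' UTRs and 19.0% in introns, and the muscle share meeting heart was 60.9% and 43.7%. The values of other genes lay within the members' intervals in these 4 shares. For myoblast 3' UTR clusters meeting heart, other genes had 59.0%, within the interval by a small margin. The lists differ in size, so each share depends on the library it is compared with.

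**Figure D5:**
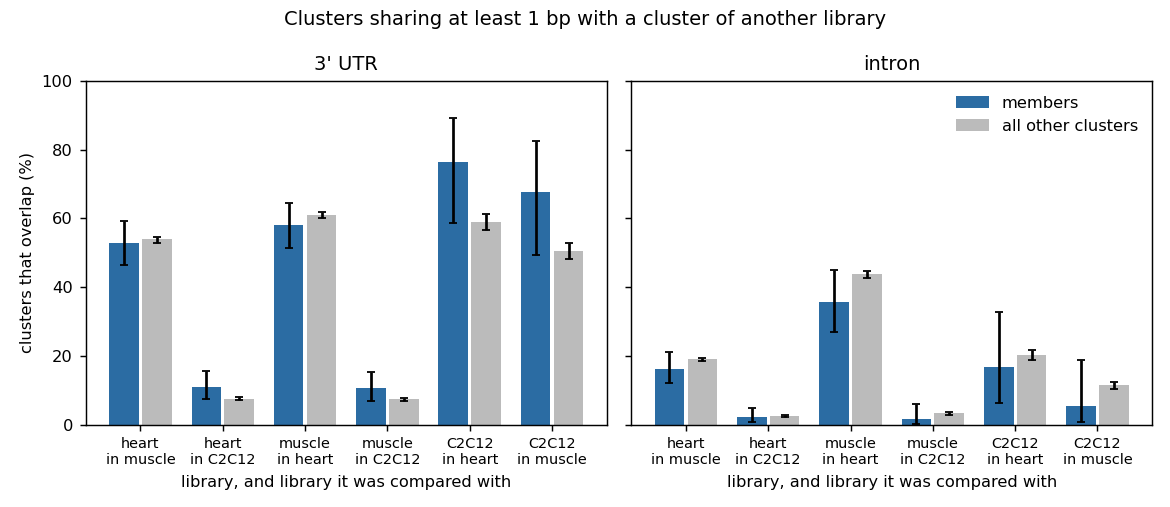
Share of clusters (%, vertical axis) that overlap a cluster of another library by at least 1 bp, for 3' UTRs (left) and introns (right), in each direction between the libraries, for members (blue) and all other genes (grey), with exact 95% counting intervals. In 3' UTRs the blue bar for myoblast clusters meeting heart is at 76.5%, and in introns no blue bar exceeds 35.7%.

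Within 3' UTRs, member clusters lay within 500 nt of an annotated transcript end in 35.3% of cases in heart (29.4 to 41.5), 39.0% in muscle (32.7 to 45.5) and 47.1% in myoblasts (29.8 to 64.9). The end taken was the nearest among transcripts whose 3' UTR held the midpoint, which need not be the end of the gene. Other clusters did so in 32.5%, 35.0% and 41.0%, all within these intervals. In introns, 21.1% (16.4 to 26.5), 15.7% (9.55 to 23.6) and 22.2% (10.1 to 39.2) of member clusters lay within 500 nt of an exon, beside 17.7%, 20.9% and 22.1% of other clusters, also within the intervals. UGU on the transcribed strand was present in 98.0% of the members' heart clusters, 99.4% of those in muscle and 87.8% of those in myoblasts, beside 98.3%, 98.3% and 86.3% of other clusters. The 9 myoblast clusters without UGU included 7 in introns, where 80.6% (64.0 to 91.8) had it, and 1 in a 3' UTR, where 97.1% (84.7 to 99.9) had it. The 5-letter UGUGU, which contains UGU, was in 47.2%, 41.0% and 36.5% of member clusters, beside 50.8%, 45.4% and 33.4% of others. Myoblast clusters were narrower, with a median of 37.5 nt in members against 53 nt in heart and 55 nt in muscle, and the part of width in the UGU shares was not tested.

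Further genes of vesicle transport outside the symbol rule were counted from 9 lists of 118 genes in all. Of these 96 had a cluster, 92 in heart, 75 in muscle and 40 in myoblasts, and 36 in all 3. Of all 8037 genes with a cluster, 6857 had one in heart, 5341 in muscle, 2754 in myoblasts and 1821 (22.7%) in all 3. Their clusters lay in 3' UTRs in 34.9%, 47.9% and 35.0% of cases, against 46.9%, 66.3% and 45.9% for the members. All clusters outside the members had 32.8%, 49.8% and 33.7%, so the shares of the lists were nearer to these than to the members. The heart, muscle and myoblast clusters were 24, 11 and 2 for COPI, 108, 66 and 11 for clathrin and adaptors, 60, 57 and 6 for the exocyst, and 55, 49 and 13 for other SNARE machinery. They were 39, 35 and 2 for golgins and tethers, 50, 23 and 4 for TRAPP, 34, 28 and 9 for Arf and Sar GTPases, 99, 62 and 8 for Rab regulators, and 30, 22 and 5 for ESCRT. Of 52 genes tested between heart and muscle, 2 (3.85%) were called higher in heart, beside 7.72% of all genes, and 11 (21.2%) in muscle, beside 17.3%. Exoc4, an exocyst subunit, had 33, 25 and 4 clusters, none in a 3' UTR, and Arf3 had 7, 6 and 5, all in its 3' UTR.

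The tissue labels were checked against markers. The heart list held 387 clusters in heart beside 1 in muscle and 2 in myoblasts, with its defining genes Myh6 and Ryr2 at 0 outside heart. Skeletal muscle markers held 8, 142 and 0, with Neb at 0 outside muscle. The 6 myoblast markers held 6, 4 and 39, and Hmga2 with 26 and Ccnd1 with 11, both genes of growing cells, made up most of the 39. Of the myogenic factors, Myod1 had 0, 1 and 2, and Myf5, like Cdh15 and Igf2bp1, had 0 in every library. Markers of endothelial cells held 58 heart clusters, 21 in muscle and 0 in myoblasts. Markers of fibroblasts held 4, 4 and 2, and those of nerve and Schwann cells 0, 2 and 1. The part of other cell types in the members' clusters was not tested.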

How the data were processed

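CELF1 CLIP-seq was done on heart, muscle and C2C12 myoblasts, 1 library each. Per the labels and the paper's methods, identical reads were collapsed with a short barcode and unique matches to mm9 (Bowtie, TopHat) were kept. Clusters were called in windows against a Poisson model of gene expression and unspliced length. The sources used here give no tool versions. The paper gives about as many uniquely mapped reads for myoblasts as for heart and fewer for muscle, so the sizes of the cluster lists do not follow read depth. The deposited files hold cluster positions with Entrez identifiers and no read counts. A further column, 1 constant value in the deposited files, was not used. Unique mapping can leave out sites shared by paralogs.

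BED starts were taken as 0-based, and positions are printed from 1. Symbols came from a RefSeq table of a later build, used for names. Of 8037 identifiers, 7967 (99.1%) matched GENCODE vM1 on NCBIM37, the assembly of mm9, as did all 129 members. A cluster's gene part was that of its midpoint over protein-coding transcripts (3' UTR, coding exon, 5' UTR, intron).

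Shares have exact Clopper-Pearson 95% intervals, clusters per length exact Poisson intervals, and ratios exact conditional ones. No p-value was computed. A gene was compared between 2 libraries with at least 5 clusters in both together. As first worded, the rule set counts under 3 to 3 in both libraries. It then called members higher in myoblasts without a myoblast cluster, so it was changed after the counts were seen: 3 now replaces a lower count in the lower library only, and the higher library needs at least 3 clusters. The median difference in share was also chosen then.

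The genes named are the 10 members with the most 3' UTR and the 5 with the most intronic clusters per library, the 5 called with the largest fold per direction, those bound in myoblasts alone, the 5 with the most coding exon and 5' UTR clusters, Tmed2 and paralogs. Stxbp3, Stxbp5, Vps8, Snx10, Rab30, Rab3ip, the VAMPs, the retromer genes and the genes named outside the rule were chosen after their values were seen. The values of 1 member are not reported here. Members and gene lists were chosen with earlier results of these data known. Functions were tested on simulated data. Programs were matplotlib 3.10.9, pysam 0.24.0, scipy 1.17.1, pandas 2.3.3, numpy 2.4.6 and Python 3.11.15.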

Additional observations from a re-analysis of the deposited data

How the results depend on the processing

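Each library is its own group, so no replicate could be left out. No paired analysis was possible because each group has 1 library, so a shared number gives fewer than 2 pairs and no result comes from a test. The size of the cluster list limits how many genes can be seen in myoblasts, and clusters carry no read numbers. Of the 130 values recomputed, 97 stayed within the counting interval or within 1.5 times, and 33 moved. With clusters of at least 40 nt, myoblasts held 20 bound members and 12 with a 3' UTR cluster, 16 members were bound in all 3 libraries, 1 was called between heart and myoblasts, and the myoblast shares were 61.5% in 3' UTRs, 34.6% in introns and 96.2% with UGU. With that minimum, 3.29% of heart clusters met myoblasts and 53.8% of myoblast clusters met muscle. Merging clusters within 50 nt gave 41.9% in 3' UTRs and 53.5% in introns in heart, and 60.4% and 38.5% in muscle. With the longest coding transcript only, 41.7% of heart and 59.6% of muscle clusters lay in 3' UTRs. The 3' UTR share of other clusters fell too, and the members stayed 8.96 to 17.8 percentage points above it with these and the other settings tried for this share. In myoblasts, however, the members' interval held the share of other clusters with the 40 nt minimum and without Rab10. Requiring 50% of both clusters gave overlaps over all gene parts of 27.0% in place of 33.3% (heart with muscle), 2.21% for 6.25% (heart with myoblasts), 41.3% for 50.8% (muscle with heart), 2.81% for 7.58% (muscle with myoblasts), 16.2% for 43.2% (myoblasts with heart) and 13.5% for 33.8% (myoblasts with muscle). With at least 2 clusters, 20 members were bound in myoblasts, 8 at the 3' UTR, and 15 in all 3 libraries. A fold of 3 left 3 members called between heart and muscle. With 3' UTR clusters only, 3 were called between heart and muscle and 3 between muscle and myoblasts. The share called over all genes at these settings, or with the 40 nt minimum, is not given. These counts of calls therefore cannot be set beside a background. Adding 10 nt on both sides gave UGU in 99.1% of heart and 94.6% of myoblast clusters. Thinning gave 47.6 bound members in heart and 47.5 in muscle. The call rule as planned, replaced by the form used here in a choice made after seeing the data, gave 13 calls between heart and muscle, 51 between heart and myoblasts and 24 between muscle and myoblasts. Of the 51, 47 were called higher in myoblasts on fewer than 3 clusters, 19 of them on 0, and so were 23 of the 24, 7 of them on 0.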
